A study of Mus musculus with 6 samples.

Results

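The recruited monocyte markers are 8 genes that are widely read as a sign of blood monocytes entering a tissue: Ccr2, Cx3cr1, Plac8, Ly6c2, F13a1, Vcan, S100a4 and S100a6. They were selected by gene symbol, by a rule that uses no measured value, although earlier results of these data were known when the set was drawn up. All 8 were among the 54532 genes of the deposited count table. A filter on low counts kept 13776 genes for testing, among them 7 of the 8 markers; S100a4 did not pass.

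Classical monocytes leave the bone marrow through the chemokine receptor CCR2 and, once in an injured liver, can settle in the macrophage niche and take on features of Kupffer cells, the resident liver macrophages. CX3CR1, the receptor of fractalkine, is high on patrolling monocytes and is kept by many monocyte-derived macrophages, while resident Kupffer cells of adult mice largely lack it. The other 6 markers are abundant in circulating monocytes, and most of them decline as these cells mature into macrophages.

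Kupffer cells were sorted from livers of male mice and their total RNA was sequenced in bulk. Trem2_KO libraries (3, labelled Trem2 KO) came from Trem2-deficient mice and WT libraries (3) from littermate controls. Both groups were 8 weeks old when a high fat diet began and stayed on it for 8 weeks, so no library comes from a mouse on a standard diet. The sources used here do not give the sort gate, the deleted part of Trem2 or the tissues in which it was deleted. They also do not tie libraries to single mice, so p-values measure the spread between libraries only, and that spread may be technical.

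Total counts ran from 15799351 to 17135603 per library, and 3 reads, the limit that a count of 0 allows, correspond to 0.173 to 0.192 CPM, the read count scaled to a common library size. This limit covers counting error only. Trem2 had 1319 to 1409 reads in the WT libraries and 246 to 288 in the Trem2_KO libraries, in the direction of the labels in all 6. The libraries were rich in Kupffer cell transcripts: Clec4f, a lectin that defines these cells, had a mean FPKM, a level per gene length and library size, of 4966 in WT and 4503 in Trem2_KO. Throughout, a gene is called when its edgeR quasi-likelihood test gives a Benjamini-Hochberg adjusted p under 0.05 over all genes tested, and log2 changes are Trem2_KO over WT.

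The 8 markers did not move as a group. Ccr2 and Cx3cr1 were called higher in Trem2_KO, Plac8 was called lower, and Ly6c2, F13a1, Vcan and S100a6 were not called. Over every tested gene, 15.3% had a call higher and 15.1% a call lower, 30.4% in all, so 2 higher and 1 lower among 7 is read against a large background. DESeq2 called the same 3 markers, beside 19.8% of the genes it tested. A call higher with a fold of at least 2 was rarer, at 1.98% of all genes tested, and both chemokine receptors met it. The groups did not overlap for the same 3 markers, beside 20.9% of all tested genes with every Trem2_KO library higher and 20.7% with every one lower, 41.6% in all. The median log2 change of the 7 tested markers was 0.35, beside -0.01 for all tested genes. That median is the value of Ly6c2 alone, which had 8 to 15 reads per library and was not called. In bulk RNA, a change in the number of cells of a type and a change in RNA per cell cannot be told apart, and this holds for each value that follows.

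Ccr2 (ENSMUSG00000049103, chr9:124101950-124113557, plus strand, GRCm38) encodes the receptor of CCL2 and drives monocyte exit from the marrow. It had 107, 93 and 92 reads in WT replicates 1 to 3 and 290, 277 and 298 reads in Trem2_KO replicates 1 to 3. Every Trem2_KO library was far above every WT library, and the libraries of each group lay close together. On the CPM scale the mean rose from 6.22 ± 0.532 to 17.04 ± 0.431 (SD, n = 3 per group), a 2.74-fold change with a 95% interval of 2.33 to 3.21. The log2 change was 1.45 (SE 0.115, edgeR adjusted p = 2.63e-15), which placed Ccr2 at rank 124 of 13776 from the highest change.

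Cx3cr1 (ENSMUSG00000052336, chr9:119901616-120069879, minus strand) encodes the receptor of the membrane-bound and shed chemokine CX3CL1. It had 76, 91 and 92 reads in WT and 275, 227 and 268 in Trem2_KO. The groups were again far apart, with Trem2_KO replicate 2 the lowest of its group. Mean CPM rose from 5.52 ± 0.576 to 15.1 ± 1.19 (SD, n = 3 per group), a 2.74-fold change with an interval of 2.31 to 3.26. Its log2 change of 1.46 (SE 0.124, edgeR adjusted p = 3.53e-14) had rank 123, directly beside Ccr2, and the 2 genes lie 4.03 Mb apart on chromosome 9.

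**Figure D1:**
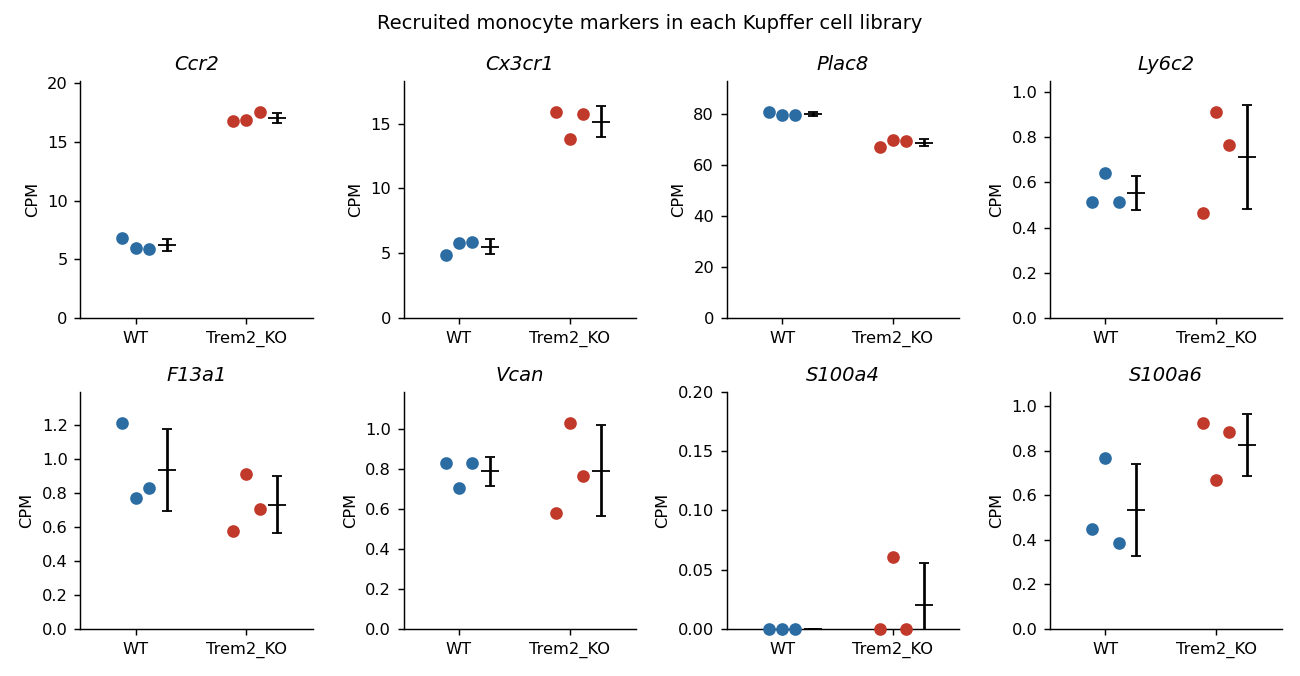
Points show CPM in each of the 6 libraries, with the mean and SD (n = 3) beside them, in a panel for each of the 8 markers with its own axis from 0. Ccr2 and Cx3cr1 sat at 13.8 to 17.5 CPM in Trem2_KO and 4.85 to 6.83 in WT, Plac8 was slightly lower in Trem2_KO, and the groups of the other 5 overlapped.

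The counts of both receptors come mostly from exonic sequence of their own. Ccr2 overlaps no other annotated gene, and 1.91% of its 50-base windows also occur in transcripts of other genes. The long Cx3cr1 locus spans 9 other genes, yet only 78 of its 4505 exonic bases are shared with an exon of another gene, the antisense transcript Gm33858, which had 0 or 1 read per library. Csrnp1, a nuclear protein gene on the same strand within the Cx3cr1 locus, shared 0 exonic bases with it and also rose, from 443, 387 and 423 reads to 980, 976 and 940 (log2 change 1.10, SE 0.0625, edgeR adjusted p = 7.4e-21). Gorasp1, a Golgi stacking protein gene that lies there too, was not called (0.06), and Wdr48, a deubiquitinase cofactor gene that overlaps one end, was called higher at 0.22 but lost the call without Trem2_KO replicate 1 (adjusted p = 0.0523).

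The promoters of the 3 called markers are printed because these genes moved in different directions in the same libraries. Each sequence, from RefSeq on GRCm38.p6, runs 5′ to 3′ along the gene from 250 bases before a RefSeq start to 50 after. For these 3 genes that start lies inside the gene model whose coordinates are given here, not at its outer end. Capitals mark GGAA, the core letters bound by ETS factors such as the macrophage regulator PU.1, or its reverse complement TTCC.
Ccr2, chr9:124101933-124102232, plus strand: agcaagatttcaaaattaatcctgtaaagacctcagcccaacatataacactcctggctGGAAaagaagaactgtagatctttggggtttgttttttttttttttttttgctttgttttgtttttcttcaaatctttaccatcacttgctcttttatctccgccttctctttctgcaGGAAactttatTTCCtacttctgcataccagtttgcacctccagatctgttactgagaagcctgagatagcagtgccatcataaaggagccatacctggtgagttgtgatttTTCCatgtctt
Cx3cr1, chr9:120068247-120068546, minus strand: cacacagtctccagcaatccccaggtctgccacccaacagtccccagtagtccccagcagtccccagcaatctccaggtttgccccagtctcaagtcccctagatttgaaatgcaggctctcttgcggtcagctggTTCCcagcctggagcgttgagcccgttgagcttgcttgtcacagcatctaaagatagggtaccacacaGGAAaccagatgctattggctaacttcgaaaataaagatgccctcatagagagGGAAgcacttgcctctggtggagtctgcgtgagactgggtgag
Plac8, chr5:100572156-100572455, minus strand, the first of 2 listed starts: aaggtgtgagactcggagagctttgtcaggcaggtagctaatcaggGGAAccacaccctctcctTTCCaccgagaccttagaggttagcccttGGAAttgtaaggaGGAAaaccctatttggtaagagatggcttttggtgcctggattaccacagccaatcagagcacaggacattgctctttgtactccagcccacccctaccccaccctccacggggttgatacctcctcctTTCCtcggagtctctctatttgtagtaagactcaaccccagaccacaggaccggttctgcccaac

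These windows held 4 matches of GGAA on either strand in Ccr2, 3 in Cx3cr1 and 5 in Plac8, but 96% of 32851 RefSeq promoters of this length hold at least 1. The longer string AGGAAG, which contains GGAA and is found in 35.4% of promoters, was in none of the 3, nor in S100a6. It did occur in the windows of Ly6c2, F13a1, Vcan and S100a4, which were not called or not tested. The KLF-type string CCACCC (31.5% of promoters) was matched once in Cx3cr1 and 2 times in the Plac8 window shown. Among the markers not called or not tested, it was matched 4 times in Vcan, once in S100a4 and 2 times in the second F13a1 window. Matches were absent for the spaced motif of IRF factors (3.44% of promoters) in all 8 markers. Both strands were searched, and a match describes letters only, not binding.

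Genes of CCR2 ligands went the other way from Ccr2, or were not called, while the CX3CR1 ligand gene rose with its receptor. Ccl2, the main CCR2 ligand, had 293, 310 and 310 reads in WT and 211, 204 and 203 in Trem2_KO. All Trem2_KO libraries were below all WT libraries, the reverse of its receptor. This was a log2 change of -0.68 (SE 0.0949, edgeR adjusted p = 8.05e-08). Ccl7, another CCR2 ligand, fell from 113, 89 and 107 reads to 53, 61 and 83 (log2 change -0.76, SE 0.17, edgeR adjusted p = 0.000362). Ccl12, the third mouse CCR2 ligand tested, was not called at -0.38, and Ccl8 had 3 to 13 reads per library and was not tested.

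Cx3cl1, which encodes the CX3CR1 ligand fractalkine, had 9, 9 and 7 reads in WT and 47, 36 and 33 in Trem2_KO. It was low in all libraries but several times higher in each Trem2_KO library than in any WT library. Its log2 change reached 2.08 (SE 0.348, edgeR adjusted p = 3.22e-06). Adam10 and Adam17, proteases that shed CX3CL1 from the membrane, were not called at 0.06 and 0.07. Both were called higher with total counts in place of TMM scaling, and Adam10 also without WT replicate 1 (0.09, edgeR adjusted p = 0.0386).

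**Figure D2:**
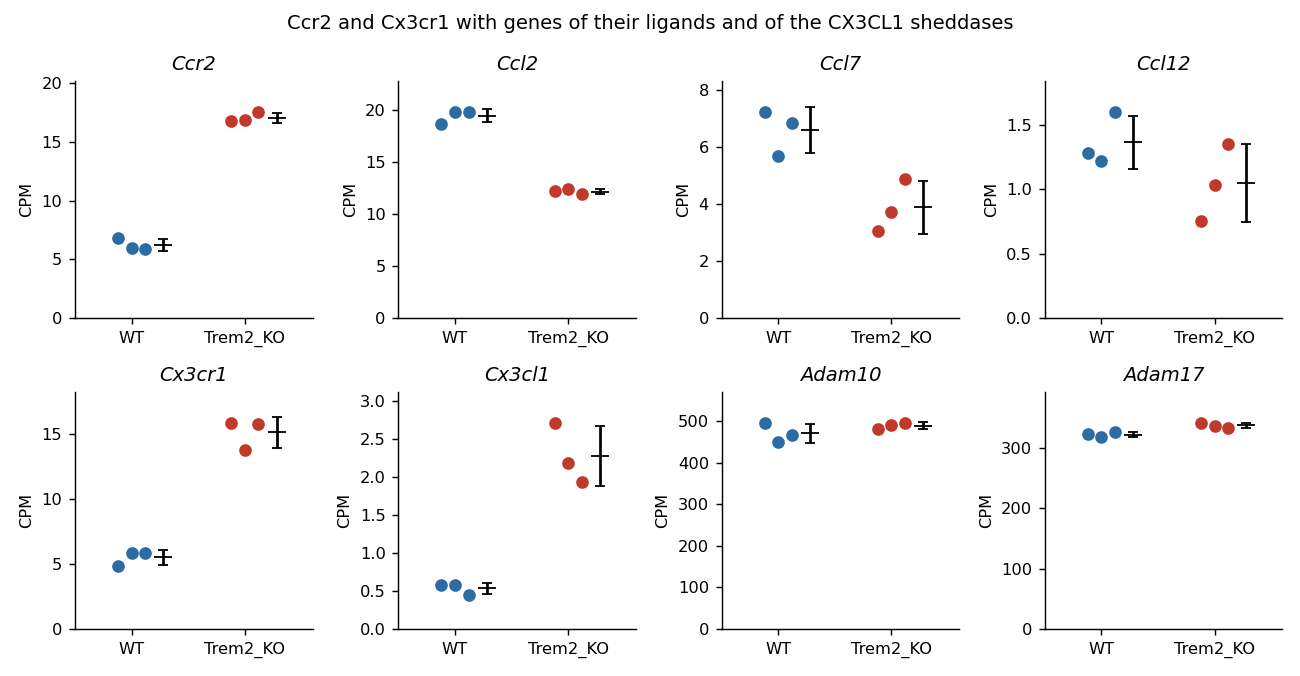
CPM in each library, with mean and SD (n = 3), for Ccr2 and the CCR2 ligand genes in the top row and for Cx3cr1, its ligand gene Cx3cl1 and the sheddase genes in the bottom row; each axis starts at 0. Ccr2, Cx3cr1 and Cx3cl1 were higher and Ccl2 and Ccl7 lower in every Trem2_KO library than in every WT library.

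Of 14 tested genes of monocyte recruitment ligands and partners, 4 were called higher and 4 lower, beside 15.3% and 15.1% of all tested genes. Their median log2 change was -0.02. Vcam1, the vascular adhesion molecule that Kupffer cells also carry, rose at 0.70 (SE 0.0242), and Selplg, the selectin ligand of leukocytes, fell by 0.20 on the log2 scale (SE 0.0369).

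The surroundings of Ccr2 were examined after its values had been seen. Within 300 kb of it, the largest change of a tested gene was in Ccr1, a receptor of CCL3 and CCL5 on monocytes and neutrophils, 133.3 kb away, with 7, 9 and 20 reads in WT and 72, 80 and 85 in Trem2_KO (log2 change 2.59, SE 0.273, edgeR adjusted p = 3.53e-11). Ccr3, the eotaxin receptor, 70.3 kb away, went from 27, 29 and 45 reads to 64, 83 and 82 (1.07, SE 0.217, adjusted p = 9.8e-05). Fyco1, a vesicle transport adaptor, was called at 0.23, and Ccr1l1 and Xcr1 were not called at -0.19 and 0.17. Change was therefore uneven along this stretch, at least 2-fold in Ccr1, Ccr2 and Ccr3 and small in Fyco1.

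By a distance over the 6 libraries between log2 CPM profiles, each centred on its own mean, the genes most like Ccr2 among 12003 protein-coding genes were the chemokine genes Cxcl1 (root mean square distance 0.0793) and Ccl9 (0.085) and the sulfatase gene Sulf2 (0.0975). Most like Cx3cr1 were the class I histocompatibility gene H2-T24 (0.0976), the oxysterol-binding protein gene Osbpl3 (0.106) and again Ccl9 (0.107). Cx3cr1 was 22nd by likeness to Ccr2, at 0.168. With 2 groups that stand apart, likeness over 6 libraries mostly reflects a similar fold.

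Plac8 (ENSMUSG00000029322, chr5:100553725-100572245, minus strand), a small cysteine-rich protein gene highly expressed in Ly6C-high monocytes, was the only abundant marker and the only one called lower. It had 1266, 1243 and 1249 reads in WT and 1162, 1150 and 1180 in Trem2_KO. The groups did not overlap, but the gap between them was small. Mean CPM fell from 80.1 ± 0.711 to 68.8 ± 1.42 (SD, n = 3 per group), a ratio of 0.859 with a 95% interval of 0.804 to 0.918. The log2 change was -0.22 (SE 0.0475, edgeR adjusted p = 0.000253). The main fit had an estimated common coefficient of variation of 0.0378. With this fixed at 0.2 for every gene and a likelihood ratio test in place of the quasi-likelihood test, the Plac8 call was lost (adjusted p = 1). The calls of Ccr2 and Cx3cr1 were kept, beside 2.69% of all genes.

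Because Plac8 supplied most of the reads of the 8 markers, their sum hid the receptors. Summed, the markers came to 94.1 to 95.5 CPM in the WT libraries and 102 to 106 CPM in Trem2_KO. Plac8 made up 84.4% to 84.8% of these reads in WT and 65.6% to 67.1% in Trem2_KO. Ccr2 and Cx3cr1 together made up 12.2% to 12.5% in WT and 29.4% to 31.9% in Trem2_KO, and the remaining 5 markers summed to 40 to 59 reads in any library.

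Ly6c2 (ENSMUSG00000022584, chr15:75108158-75111970, minus strand), the gene of the Ly6C antigen that sorts classical monocytes, was close to absent. It had 8, 10 and 8 reads in WT and 8, 15 and 13 in Trem2_KO. The groups overlapped, and its log2 change of 0.35 (SE 0.453, edgeR adjusted p = 0.603) had a 95% interval of -0.55 to 1.26. The upper end of that interval is a 2.40-fold rise, below the 2.74-fold estimates of Ccr2 and Cx3cr1 but inside their intervals. Of the 50-base windows of Ly6c2, 13.9% also occur in its paralog Ly6c1, so its count is uncertain, and Ly6c1 itself had 3 to 9 reads per library.

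F13a1 (ENSMUSG00000039109, chr13:36867178-37050244, minus strand), which encodes the A subunit of clotting factor XIII and is strong in classical monocytes, had 19, 12 and 13 reads in WT and 10, 15 and 12 in Trem2_KO. The groups overlapped. This gave a log2 change of -0.36 (SE 0.402, edgeR adjusted p = 0.549), with an interval of -1.16 to 0.45, so that a rise of more than 1.36-fold lay outside it. Much of its exonic sequence, 66.9%, lies inside annotated antisense genes, which had 0 reads in all 6 libraries.

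Vcan (ENSMUSG00000021614, chr13:89655312-89742509, minus strand), the gene of the matrix proteoglycan versican, had 13, 11 and 13 reads in WT and 10, 17 and 13 in Trem2_KO. Its WT values fell within the range of its Trem2_KO values. The log2 change was 0.00 (SE 0.412, edgeR adjusted p = 0.999), with an interval of -0.83 to 0.83, or folds of 0.564 to 1.78. The direction of this value turned under several settings.

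S100a6 (ENSMUSG00000001025, chr3:90612882-90624181, plus strand), a calcium-binding protein gene, had 7, 12 and 6 reads in WT and 16, 11 and 15 in Trem2_KO. WT replicate 2 and Trem2_KO replicate 2 overlapped; the other libraries were ordered by group. The log2 change was 0.63 (SE 0.442, edgeR adjusted p = 0.306), with an interval from -0.26 to 1.52, which reaches a 2.86-fold rise. The interval holds both no change and a change as large as that of the receptors, which this depth could not separate.

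S100a4 (ENSMUSG00000001020, chr3:90603771-90606045, plus strand), the metastasin gene that marks infiltrating monocytes and fibroblasts, had 1 read in Trem2_KO replicate 2 and 0 in the other 5 libraries. It was not detectable in WT at this depth, and a fold was not computed. Of its 584 exonic bases, 302 are shared with Gm42674, an annotated gene on the same strand that had 0 reads in all 6 libraries. The sources used here do not say how reads on shared exons were assigned; the other 282 bases belong to S100a4 alone.

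Compared per gene length, the markers fell into the same order in both groups: Plac8, Cx3cr1, Ccr2, S100a6, Ly6c2, F13a1, Vcan, S100a4. Plac8 had a mean of 50.1 FPKM in WT and 43.0 in Trem2_KO, which put it at percentiles 96.0 and 95.4 of all protein-coding genes. Cx3cr1 had 1.22 and 3.34 FPKM and Ccr2 0.916 and 2.50, at percentiles 57.0 and 66.5 for Cx3cr1 and 55.1 and 63.3 for Ccr2. The gap between Plac8 and Cx3cr1 narrowed from 41.1-fold to 12.9-fold, while Cx3cr1 exceeded Ccr2 by 1.33-fold in each group. S100a6 followed at 0.388 and 0.600 FPKM, and all lower markers were under 0.3 FPKM in both groups. The library ranges of neighbours in this order did not overlap, except for Vcan and S100a4 in Trem2_KO; at about 10 reads per library the order of the low markers is loose.

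**Figure D3:**
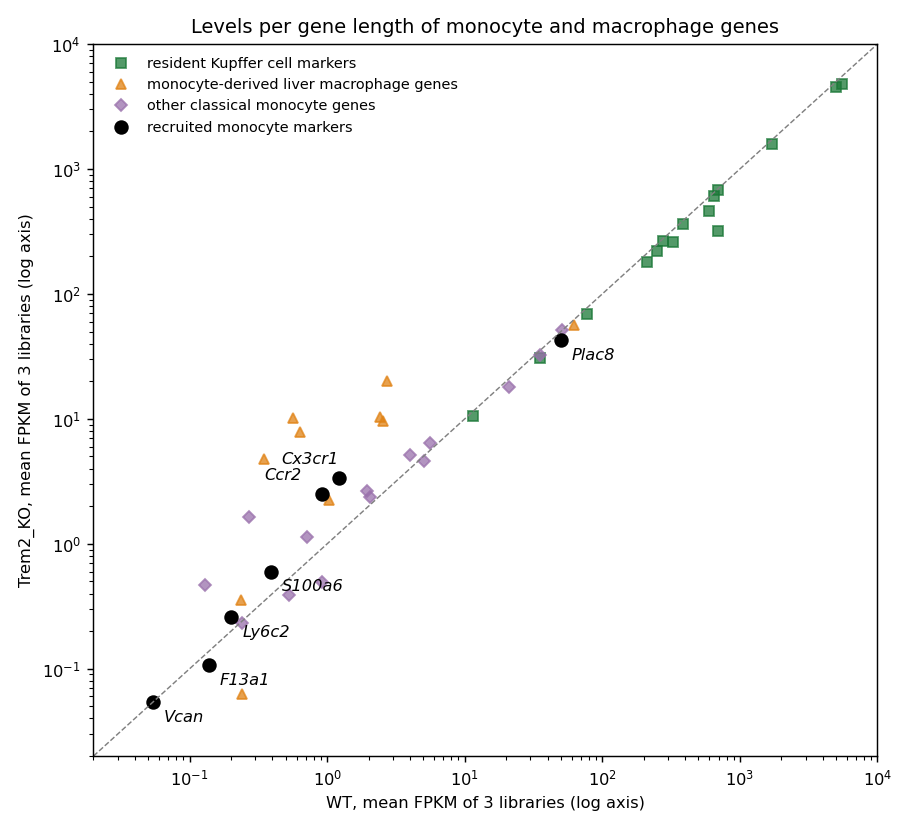
Mean FPKM of 3 libraries in Trem2_KO (y axis, log scale) against WT (x axis, log scale); the dashed line marks equal levels, and genes at 0 in a group, S100a4 among them, are left out. Ccr2 and Cx3cr1 lay above the line among monocyte-derived macrophage genes, Plac8 just below it at 50.1 and 43.0 FPKM, and the resident Kupffer cell markers ran along or below it at higher levels.

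Other genes of classical monocytes moved unevenly too. Of 14 tested, 6 were called higher and 2 lower, beside 15.3% and 15.1% of all tested genes. The median log2 change was 0.20, and the list summed to 275 to 283 CPM in WT and 287 to 292 in Trem2_KO. Besides Ccr1, the rises by smallest p were Gda, guanine deaminase (0.36), Thbs1, the matrix glycoprotein thrombospondin 1 (0.67), and Sirpb1c, a signal-regulatory protein of a family with close paralogs (0.46). Itgam, the integrin CD11b, and Hp, haptoglobin, were not called at -0.14 and 0.01, nor was Lyz1 at -0.88. Without WT replicate 3, Itgam (-0.22, edgeR adjusted p = 0.0373) and Lyz1 (-1.12, edgeR adjusted p = 0.0458) were called lower. The higher calls of Chil3 and Fn1 and the lower calls of Ifitm6 (-0.23) and Mgst1 (-0.14) were each lost without at least 1 of the libraries. Chil3, the chitinase-like protein of marrow monocytes, had 2, 2 and 6 reads in WT and 13, 15 and 11 in Trem2_KO. DESeq2 called 4 of the list higher and 0 lower, with 3 lower at an unadjusted edgeR p under 0.05.

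Genes of patrolling monocytes, which carry high CX3CR1, gave 4 calls higher and 1 lower among 7 tested, with a median of 0.21. Over all tested genes, 15.3% were called higher and 15.1% lower. Nr4a1, the nuclear receptor that these cells require, rose from 3121 to 3212 reads in WT to 4937 to 5205 in Trem2_KO (log2 change 0.57, SE 0.032, edgeR adjusted p = 2.64e-21). Cd300e rose by 0.21, and Ace, angiotensin-converting enzyme, by 0.58, although Ace lost its call in all fits on log2 FPKM. Treml4, a marker of the same cells that lies in the gene cluster of Trem2 on chromosome 17, fell by 0.18 on the log2 scale. The fourth rise, Spn or CD43, had an adjusted p of 0.0498 and was lost without any of 4 single libraries and with DESeq2.

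The S100 and annexin genes beyond the 2 markers gave 3 calls higher and 1 lower among 11 tested, with a median of 0.24. These few calls stand beside 15.3% of all tested genes called higher and 15.1% called lower. Anxa2, a membrane-binding annexin, rose by 0.37, and Anxa4 by 0.24. S100a10, the ANXA2 partner, had 39, 33 and 37 reads in WT and 71, 45 and 73 in Trem2_KO (0.68, edgeR adjusted p = 0.0148), and lost the call without WT replicate 2, Trem2_KO replicate 1 or Trem2_KO replicate 3. Anxa5 was called lower at -0.08, a call that 4 of the fits without 1 library lost. S100a8 and S100a9, the calprotectin genes that are very abundant in neutrophils and classical monocytes, had 12 to 36 reads per library and were not called at -0.34 and -0.32.

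Most genes of the macrophage lists were called, beside 30.4% of all tested genes, 15.3% higher and 15.1% lower. Of 9 tested genes of monocyte-derived liver macrophages, 7 were called higher and 1 lower, with a median of 2.09, and their sum went from 388 to 396 CPM in WT to 629 to 651 in Trem2_KO. The leading genes were Mmp12, macrophage elastase (2.89), Gpnmb, a lysosome-associated glycoprotein (4.16), Cd63, a tetraspanin (3.63), and Itgax, the integrin CD11c (2.09), while Clec12a, a myeloid lectin, was called lower at -0.15. Of 15 resident Kupffer cell markers, edgeR called 12 lower and 0 higher, with 0 higher also at an unadjusted p under 0.05 and with DESeq2, and the median was -0.16. By smallest p the leading genes were Marco, a scavenger receptor (-1.11), Slc40a1, the iron exporter (-0.38), Timd4, a phosphatidylserine receptor (-0.34), and Cd5l, a secreted macrophage protein (-0.20). The resident markers summed to 42297 to 43272 CPM in WT and 37125 to 37519 CPM in Trem2_KO, far above the 94.1 to 106 CPM of the monocyte markers. Whether either list and the receptors changed in the same cells was not tested.

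Markers of other blood cells were mostly low. Their calls stand beside 15.3% of all tested genes called higher and 15.1% called lower. Ly6g, which defines neutrophils, had 0 reads in all 6 libraries; 4 neutrophil genes were tested, of which Csf3r was called lower at -0.10, a call lost without WT replicate 3, Trem2_KO replicate 1 or Trem2_KO replicate 2. The neutrophil list summed to 194 to 210 CPM in WT and 183 to 193 in Trem2_KO, nearly all of it Csf3r, which monocytes and macrophages also express. Flt3 of dendritic cells had 2 to 11 reads; of 6 tested dendritic cell genes, Clec9a was called higher (0.18) and Clec10a lower (-0.27), and each call was lost without WT replicate 2, among other libraries for Clec9a. The T and NK cell genes summed to 7.02 to 7.99 CPM in WT and 7.65 to 8.24 in Trem2_KO, and Cd4 and Lck, the 2 tested, were not called. Of 7 tested B and plasma cell genes, Ighm, the IgM heavy chain, was called lower (-0.82), as was Cd79b of the B cell receptor (-0.32, lost without WT replicate 1, WT replicate 2 or Trem2_KO replicate 1), and 0 were called higher by edgeR, by DESeq2 or at an unadjusted p under 0.05. Pf4 and Itga2b, the tested platelet genes, were not called at 0.10 and 0.62, and Gp1bb had 0 reads.

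Transcripts of non-blood liver cells were present, and single genes of them were called in each direction. The shares called over all tested genes were 15.3% higher and 15.1% lower. Of 13 sinusoidal endothelial markers, 11 were called higher and 1 lower, with a median of 0.46, among them Ptprb (0.67), Flt4 (0.75) and Ehd3 (0.61), while the abundant Cdh5 was lower (-0.15); their sum was 2023 to 2043 CPM in WT and 2003 to 2016 in Trem2_KO. Of 12 stellate and fibroblast markers, 3 were called higher, Ecm1 (0.32), Hgf (0.35) and Col14a1 (0.58), and 0 lower by edgeR or DESeq2, with 1 lower at an unadjusted p under 0.05; their median was -0.27. Colec11, a collectin gene of stellate cells, was not called at -0.59. It was called lower without WT replicate 1 or Trem2_KO replicate 3, and with protein-coding genes only. Pdgfrb, not called at -0.46, was called lower without WT replicate 2 (-0.76, edgeR adjusted p = 0.0313). Hepatocyte markers gave 1 call higher, Hpx (0.31), and 5 lower of 10, with a median of -0.21, such as Serpina3k (-0.72), Apoa1 (-0.71) and Ahsg (-0.68). Tstd1, the tested cholangiocyte gene, was not called at -0.02, and of the mesothelial genes Krt8 was called at 0.58 (adjusted p = 0.0491, lost in 4 of the fits without 1 library) and Krt18 was not, at 0.01. The part of these cells in the levels of Ccr2, Cx3cr1, Cx3cl1 or Vcam1 was not tested.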

How the data were processed

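Per the submitters' processing notes, the tools were HISAT2 2.0.5 and featureCounts 1.5.0-p3 as well as DESeq2 1.16.1, and the builds GRCm38 and mm10. Whether strand was used, and how reads shared by genes were counted, is not stated there or in any label. The deposited counts are whole reads per gene with no normalization, and the deposited FPKM values are reads per gene length and library size as the authors computed them. FPKM was used to compare levels between genes, and counts for every test. Groups and replicate numbers come from the sample titles.

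Tests used edgeR 4.0.16 under R 4.3.3 (TMM scaling, filterByExpr with the groups, a robust quasi-likelihood fit on genotype alone) over 13776 genes of all 6 libraries, with Benjamini-Hochberg adjustment and a threshold of 0.05. CPM values are TMM-scaled and given as mean ± SD with n = 3; standard errors and 95% intervals of log2 changes come from the quasi-F statistic. The fit was also run on simulated data with known changes in far fewer genes than were called here. That run does not give error rates for these data. With 3 libraries per group an exact permutation test cannot go below 0.1, so none was used.

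Gene models and shared exons were read from GENCODE M21 on GRCm38, whose coordinates and exonic lengths equal the deposited ones for all 8 markers; all 8 matched a RefSeq promoter. The markers, the other gene lists and the alternatives were chosen with earlier results of these data known. Named genes are the 8 markers, up to 4 genes of each other list by smallest p (2 where none was called), genes that overlap a marker, and the 3 protein-coding genes closest in profile to Ccr2 and to Cx3cr1. All other genes were named after their values were seen, among them the neighbours of Ccr2, Ccl7, Ccl12, Ccl8, Spn and the chemokine receptor family. Some genes of the lists are counted but not reported singly here. Alternatives were DESeq2 size factors or total counts as scaling, no filter or a stricter one (10 counts in every library of a group and over 1 CPM in 3 libraries), DESeq2 1.42.0, limma-voom and limma 3.58.1 on log2(FPKM + 1) or log2(FPKM + 0.1), a coefficient of variation fixed at 0.2, protein-coding genes only, a replicate block, and each library left out in turn.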

Additional observations from a re-analysis of the deposited data

How the results depend on the processing

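Of 13776 genes, 4182 were called, and 3377 to 3909 when 1 library was left out. The count was 2587 on log2(FPKM + 1), 2651 on log2(FPKM + 0.1), 1979 on log2(FPKM + 1) without a filter, 371 with the coefficient of variation fixed at 0.2 and 2812 with DESeq2. Total counts as scaling called 2517 higher and 1588 lower, against 2103 and 2079, and moved the median log2 change of all tested genes from -0.01 to 0.03. Of the markers, 3 were called in every fit that left out 1 library, and 2 with the coefficient of variation at 0.2. Called genes of the other lists numbered 72, or 60 to 67 with 1 library left out, and 12 with the coefficient of variation at 0.2. The log2 change of Ccr2 ran from 0.87 to 1.52 over the 18 alternatives and that of Cx3cr1 from 0.97 to 1.52, with adjusted p of at most 0.00101 and 0.0014; the low ends came from log2(FPKM + 1), whose pseudocount shrinks low genes. Plac8 ran from -0.23 to -0.19. Vcan turned to -0.011 without a filter, -0.037 with limma-voom, -0.0078 with the replicate block, -0.08 without WT replicate 2 and -0.23 without Trem2_KO replicate 2, and left-out libraries gave -0.23 to 0.19; the cause was not tested. The stricter filter left Ly6c2, F13a1, Vcan and S100a6 untested, and Vcan was not in the filtered FPKM fits. Libraries of the same number share only that number: their deviations correlated at -0.00787, 0.00313 and 0.0361, and the fit with the replicate block called 4230 genes and the same 3 markers, while Spn and Ifitm6 lost their calls in it and Cxcr3 was called lower (-0.43, adjusted p = 0.0449). At 6 to 19 reads per library, the 95% intervals of the low markers reached folds of 1.36 in F13a1, 1.78 in Vcan, 2.40 in Ly6c2 and 2.86 in S100a6.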

Other observations

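The chemokine receptor family as a whole, examined after the values of Ccr2 and Cx3cr1 had been seen, held more calls higher than lower. Of 24 such genes counted, 12 were tested, and edgeR and DESeq2 each called 7 higher and 0 lower. At an unadjusted edgeR p under 0.05, 1 was lower. Besides Ccr2 and Cx3cr1, edgeR called 5 of 10, beside 15.3% of all tested genes called higher and 15.1% lower. Ccrl2, an atypical receptor that binds chemerin, had 710, 701 and 677 reads in WT and 1329, 1231 and 1250 in Trem2_KO (log2 change 0.75, edgeR adjusted p = 1.83e-17). Cxcr4, the CXCL12 receptor that retains cells in the marrow, had 579, 540 and 538 reads in WT and 1030, 957 and 1001 in Trem2_KO (0.74, edgeR adjusted p = 1.44e-15). Cxcr3, the receptor of interferon-induced chemokines, had 92, 101 and 97 reads in WT and 71, 105 and 59 in Trem2_KO and was not called at -0.41, but was called lower without Trem2_KO replicate 2 (-0.70, adjusted p = 0.0037), with limma-voom (-0.46, adjusted p = 0.0416) and with the replicate block (-0.43, adjusted p = 0.0449). The median log2 change of the 12 was 0.68, and the 12 receptors that were not tested had at most 19 reads in any library.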
